A study of Mus musculus with 15 samples.

Results

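Interferon-stimulated genes are the genes a cell switches on after an interferon signal, and 55 of them were followed in RAW 264.7 cells, a mouse macrophage line transformed by a leukaemia virus, after loading with silica nanoparticles. The 55 genes were taken by symbol from a list of antiviral effectors, nucleic acid sensors, interferon transcription factors and immunity-related GTPases. The list was chosen with earlier results of these data known, so its shares beside those of all genes describe it and do not test it. All 55 were found among the 57186 genes of the count table, and all 55 were among the 19839 genes tested. Poly(A) RNA was sequenced from 15 libraries, 3 for each of 5 groups, all harvested at 6 h. The Control group was nontreated. The SNP100 group received nonporous particles of nominally 100 nm at 50 µg/mL, and the SNP50 group nonporous particles of 50 nm at 25 µg/mL. The MSNP and HMSNP groups received mesoporous and hollow mesoporous particles of 100 nm, both at 200 µg/mL. Each dose was chosen by the authors as one that saturates the cells without toxicity, so MSNP and HMSNP shared a dose and the other pairs of particles did not. All 5 groups came from a single cell line, and the labels name no interferon or virus among the treatments. The library names of each group share a number of their own, whose meaning the labels do not give. Treatment and anything that number stands for cannot be told apart in any comparison.

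Type I interferons bind a receptor made of Ifnar1 and Ifnar2, whose kinases Jak1 and Tyk2 phosphorylate STAT proteins, Stat2 among them. With Irf9 these form a transcription factor that binds the interferon-stimulated response element (ISRE), and the response to interferon gamma runs through the gamma-activated site (GAS). The products restrict viruses and intracellular microbes, and macrophages keep a low level of this programme running without infection. The genes are grouped below by what their products do: IFIT proteins with the viperin pair (6 genes), the OAS family (6), Mx proteins and other effectors (16), nucleic acid sensors (7), transcription factors (4), ISG15 with ubiquitin and ADP-ribose enzymes (8), IRG GTPases (4) and GBP GTPases (4).

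The promoters shown first were picked, among members that moved in opposite directions, because they carry the same short motif. Members without a match moved as well, among them Mx2 and Oasl2 downward and Tor3a and Trim25 upward with MSNP. The letters GAAANNGAAA, the core of the ISRE, were searched on both strands from 250 bases before to 50 bases after the annotated start, where the opposite strand reads TTTCNNTTTC. Each line gives the 150 bases before the start of the transcript, 5′ to 3′, read from GRCm39 at GENCODE starts. The core is in capitals, which run together where matches overlap. The capitals that end the Rtp4 line are the first bases of a match that runs past the start. The first set is from genes that were lower with MSNP than in the controls.
Ifit3, chr19:34560749-34560898, plus strand: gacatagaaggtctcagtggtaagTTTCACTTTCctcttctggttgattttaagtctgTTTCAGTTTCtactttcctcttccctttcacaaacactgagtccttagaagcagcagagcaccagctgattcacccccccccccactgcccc
Ifit1, chr19:34618121-34618270, plus strand: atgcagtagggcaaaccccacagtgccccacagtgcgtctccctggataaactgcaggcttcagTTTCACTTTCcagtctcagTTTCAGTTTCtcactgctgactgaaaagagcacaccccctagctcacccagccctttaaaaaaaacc
Isg15, chr4:156285304-156285453, minus strand: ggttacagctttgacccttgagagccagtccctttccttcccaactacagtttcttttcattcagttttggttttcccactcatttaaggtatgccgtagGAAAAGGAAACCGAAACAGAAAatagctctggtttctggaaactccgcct
Rtp4, chr16:23428496-23428645, plus strand: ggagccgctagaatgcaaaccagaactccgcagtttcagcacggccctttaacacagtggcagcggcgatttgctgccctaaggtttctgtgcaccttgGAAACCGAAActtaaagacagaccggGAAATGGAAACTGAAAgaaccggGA
Irgm2, chr11:58090294-58090443, plus strand: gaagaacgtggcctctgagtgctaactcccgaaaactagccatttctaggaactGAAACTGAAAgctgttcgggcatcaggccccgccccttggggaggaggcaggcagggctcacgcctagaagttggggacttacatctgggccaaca
The next set is from genes that were higher with MSNP than in the controls.
Usp18, chr6:121222707-121222856, plus strand: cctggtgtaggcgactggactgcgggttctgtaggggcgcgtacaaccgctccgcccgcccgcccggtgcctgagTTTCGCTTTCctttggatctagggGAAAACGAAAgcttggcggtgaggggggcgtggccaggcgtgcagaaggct
Irgm1, chr11:48762248-48762397, minus strand: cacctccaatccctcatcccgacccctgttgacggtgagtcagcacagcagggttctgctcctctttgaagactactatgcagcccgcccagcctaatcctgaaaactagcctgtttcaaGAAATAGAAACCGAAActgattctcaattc
Oas3, chr5:120915730-120915879, minus strand: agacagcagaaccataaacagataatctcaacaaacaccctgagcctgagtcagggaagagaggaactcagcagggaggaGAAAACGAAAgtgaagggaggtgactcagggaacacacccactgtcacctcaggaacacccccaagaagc
The ISRE core was present in 27 of the 55 promoters (49.1%), against 465 of the 13135 protein-coding genes tested (3.54%). It was found in 14 of the 29 members called lower with MSNP (48.3%), in 3 of the 5 called higher (60.0%) and in 10 of the 21 not called (47.6%). All 7 sensor promoters held it, as did 4 of 6 IFIT and viperin pair promoters, 4 of 6 in the OAS family and 2 of the 16 promoters of Mx proteins and other effectors. The GAS letters TTCNNNGAA were in 13 of the 55 windows (23.6%), against 7.66% of those of tested protein-coding genes, and in 3 of them (Bst2, Ifi47 and Zbp1) a match overlapped an ISRE core. A match is a match of letters only, and its use in these cells was not measured.

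**Figure D1:**
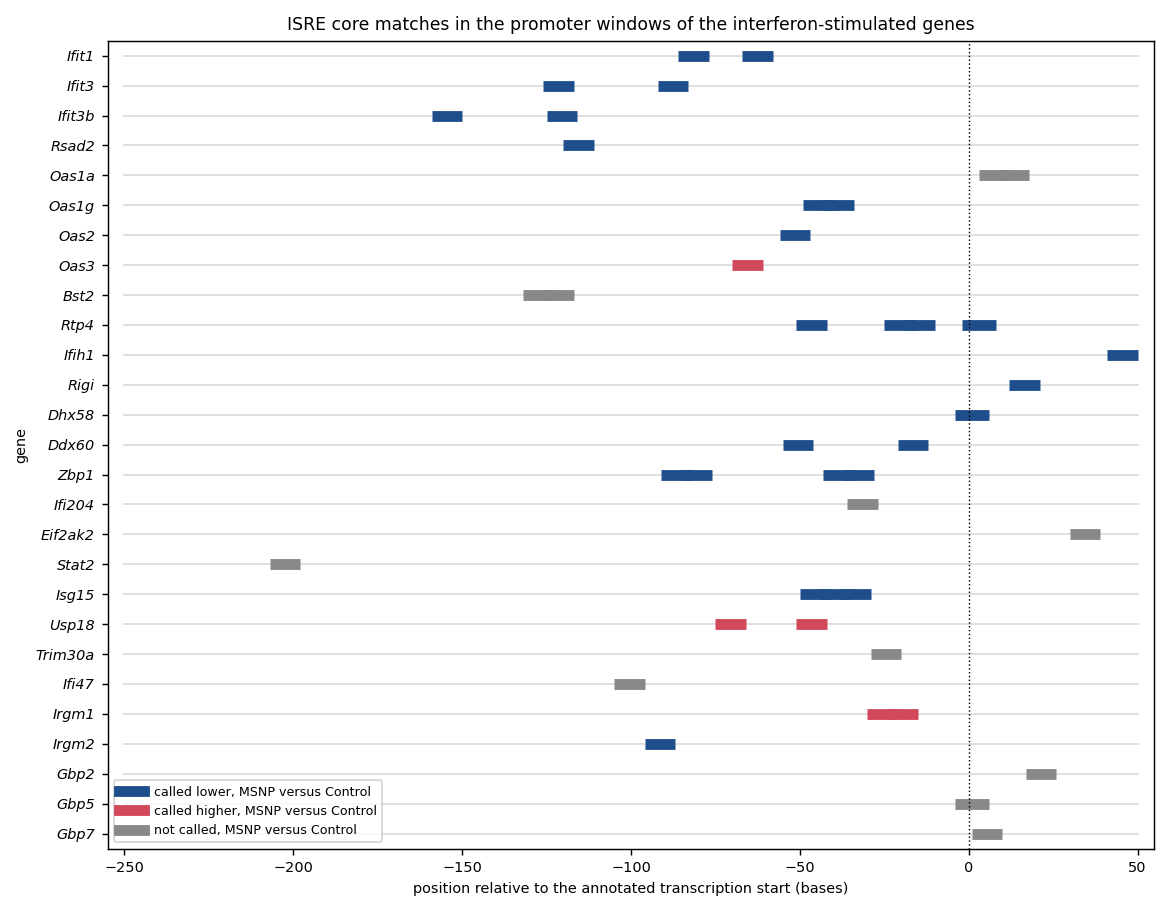
Position of each ISRE core match, in bases from the annotated transcription start (dotted line at 0), for the 27 of 55 members with a match from 250 bases before to 50 after it. Blue blocks belong to the 14 genes called lower with MSNP than in the controls, red blocks to the 3 called higher (Oas3, Usp18 and Irgm1) and grey blocks to the 10 not called, and all 3 colours lie in the same span.

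The libraries held 29369934 to 42617812 counts assigned to genes. All 10 macrophage markers examined were above 1 CPM (counts scaled to the library total) on average. Of 21 markers of other cell types, 2 exceeded 1 CPM, 7 were at 0 in every library (Cd8a, Ms4a1, Ly6g, S100a9, Col1a2, Epcam and Krt18), and their summed level was 4.74 to 6.35 CPM. Between libraries of the same group the chi-square per gene was 72.4 to 227 for the controls and 4.94 to 15.4 for the 4 particle groups. Control replicate 3 stood apart from the other controls. In it, the tenth of genes with the shortest transcripts sat 0.7 higher on the log2 scale and the tenth with the longest 0.86 lower (-0.86). Among the 46 members above 1 CPM, 20 were higher and 26 lower in that library than in the mean of the other controls, and the differences of the 46 ran from -1.26 to 0.77. Fold changes against the controls include this library, and the counts, medians and members that depended on it are also given without it.

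Per length, in TPM (counts divided by transcript length and scaled to the library total, mean ± SD of 3 libraries), the most abundant members were Ly6e at 910 ± 94.1, a membrane-anchored protein that limits virus entry, and Ifitm3 at 721 ± 116, which blocks the fusion of virus with the endosome. Lgals3bp at 164 ± 25.4 and Bst2, the virus tether, at 129 ± 24.1 also exceeded 100 TPM. The ranges of mean ± SD overlapped between Ly6e and Ifitm3 and between Lgals3bp and Bst2, and not between the pairs. A further 20 members lay between 10 and 100 TPM and 23 between 1 and 10 TPM. The 8 members under 1 TPM were Ifit3b, Oasl2, Mx1, Mx2, Ddx60, Gbp2, Gbp5 and Gbp7, so their values rest on few counts. Interferon transcripts themselves were close to absent: Ifnb1, which encodes interferon beta, was at 0.0609, 0 and 0.104 CPM in the controls and no higher than 0.0458 CPM in the treated libraries.

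The members moved mostly downward with MSNP and were mostly not called with HMSNP. Tests were made with edgeR's quasi-likelihood method over all genes, and a gene was called at a Benjamini-Hochberg adjusted p under 0.05. Fold changes are on the log2 scale with ± the standard error throughout. With MSNP, 29 of 55 members were called lower and 5 higher, where 22.8% of all tested genes were called, 11% lower and 11.8% higher. With HMSNP, 3 were called higher and 2 lower, where 5.16% of all genes were called, 2.46% higher and 2.7% lower. The median log2 change over the 55 members was -0.46 with MSNP and 0.04 with HMSNP, and over all tested genes the medians lay between -0.05 and 0. The spread was estimated over all 15 libraries together, and the controls differed more among themselves than the libraries of each particle group did. With only the 6 libraries compared, 0 members were called with SNP100, SNP50 and HMSNP, and 21 with MSNP. Those fits called 0%, 0.00574%, 0.439% and 13% of all genes. Nothing in the labels says that the 3 libraries of a group came from separate cultures, so the p-values measure the spread between libraries, pooled over the 5 groups, which may be technical. Nor can fewer expressing cells and less RNA per cell be told apart in bulk RNA.

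Fewer members were called with the nonporous particles than with MSNP, and all of those were lower. With SNP100, 7 members were called lower and none higher, where 0.912% of all genes were called, 0.403% lower and 0.509% higher, and the median change was -0.36. With SNP50, 10 were called lower and none higher, where 1.41% of all genes were called, 0.958% lower and 0.454% higher, and the median was -0.33. All 3 SNP100 libraries lay below all 3 controls for 24 members and above for 1, where 7.19% and 5.34% of all genes did so. The corresponding counts with SNP50 were 22 below and 0 above (7.87% and 6.26% of all genes), and with MSNP 30 below and 7 above (16.2% and 17%). With HMSNP 12 members lay below and 14 above (12% and 10.9% of all genes). These 4 comparisons share the same 3 controls.

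**Figure D2:**
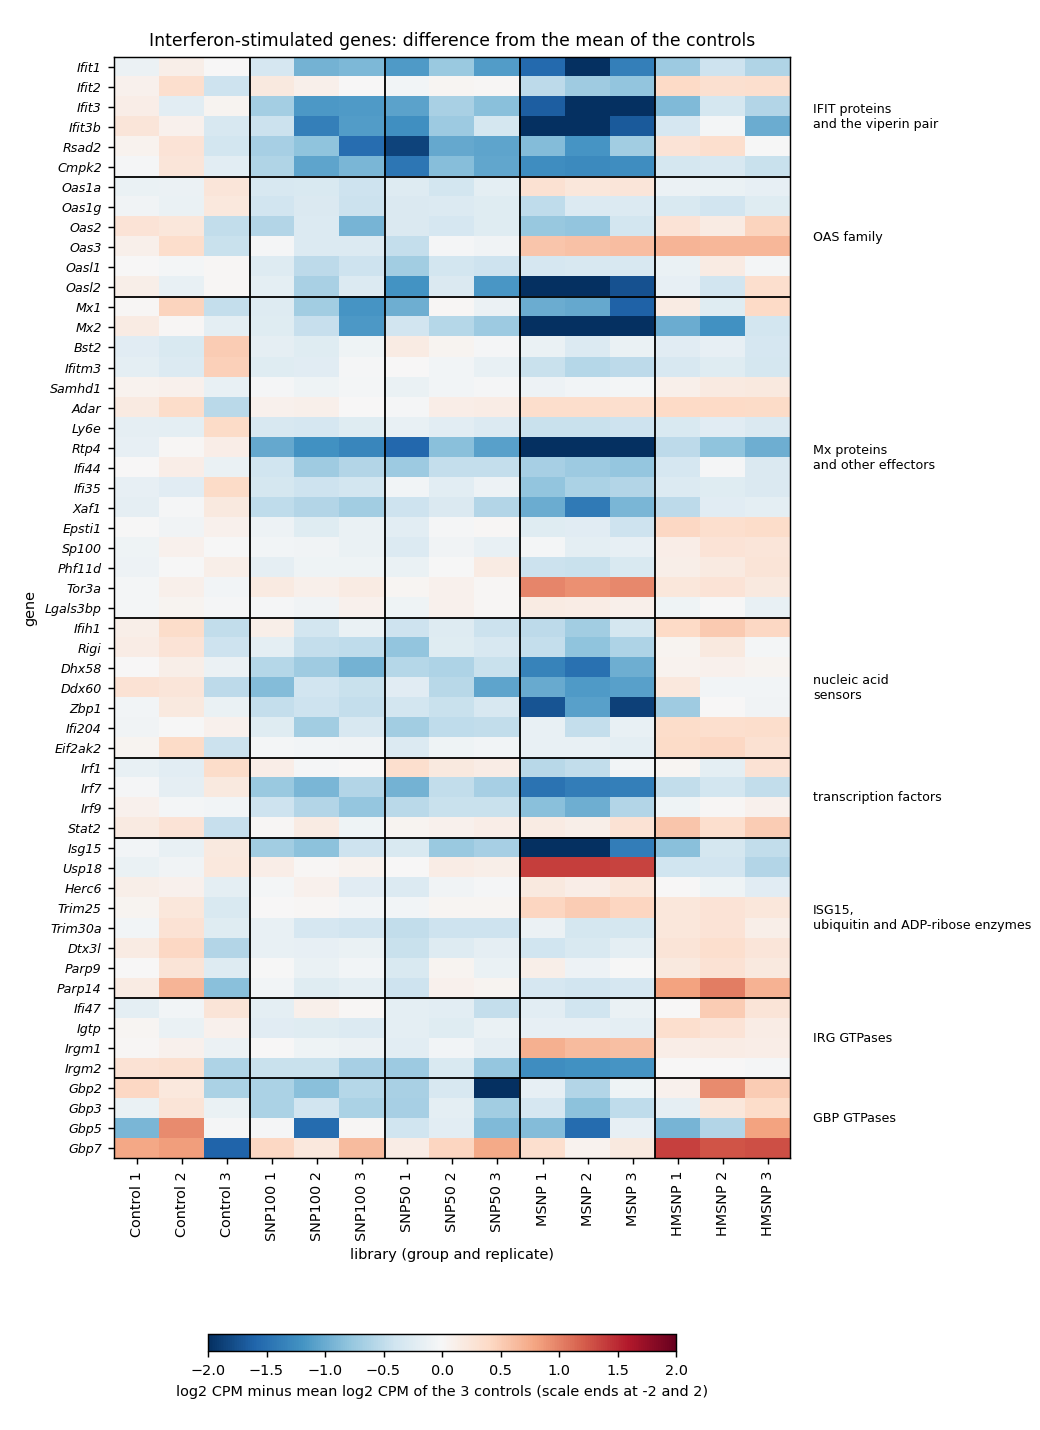
Difference of each member's log2 CPM from the mean of the 3 controls, one column per library and one row per gene, grouped by class; blue is lower, red is higher, and the colour scale ends at -2 and 2. The MSNP columns are blue for all 6 IFIT and viperin pair genes and red for Usp18, Tor3a, Irgm1 and Oas3, and Control replicate 3 differs from its own group for Gbp7, Parp14 and Bst2, among others.

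Over the 46 members above 1 CPM, the median difference of a library from the control mean was -0.37, -0.42 and -0.33 in the MSNP libraries. It was -0.20, -0.27 and -0.26 with SNP100 and -0.29, -0.21 and -0.19 with SNP50. The HMSNP libraries were at 0.05, 0.16 and 0.10, and the controls at -0.01, 0.09 and -0.06. The 9 libraries with SNP100, SNP50 or MSNP thus all lay below the 3 controls and the 3 HMSNP libraries. The summed level of the 55 members did not follow this order, at 2140 to 2800 CPM with the highest value in Control replicate 3, and Ly6e and Ifitm3 were its largest terms.

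Without Control replicate 3, the counts called became 20 with SNP100 (all lower), 25 with SNP50 (24 lower, 1 higher), 41 with MSNP (35 lower, 6 higher) and 5 with HMSNP. The counts over all genes rose as well, to 5.16% of the genes tested with SNP100, 18.9% with SNP50, 29.5% with MSNP and 8.66% with HMSNP. The median log2 changes of the 55 members were then -0.39, -0.47, -0.59 and 0.01. With 2 controls left, 44 members with SNP100, 41 with SNP50, 39 with MSNP and 17 with HMSNP lay below both of them in all 3 libraries, where 16.2%, 20.6%, 23.7% and 17.9% of all genes did so, and 2, 4, 8 and 15 lay above (15.9%, 21.2%, 25.6% and 16.8% of all genes). No call of a member made with all libraries was lost. The log2 changes of 5 members called with MSNP moved by more than 1.5 times, to -0.27 ± 0.064 for Ifitm3, -0.23 ± 0.044 for Ly6e, -0.46 ± 0.07 for Ifi35, -0.23 ± 0.079 for Oas1g and 0.36 ± 0.11 for Oas3, and the changes of members called with the other particles moved by less. The call counts for the nonporous particles and for HMSNP moved with single libraries. Without Control replicate 1 they were 3, 3 and 3 for SNP100, SNP50 and HMSNP, and without Control replicate 2 they were 9, 4 and 24. Of all genes 0.55%, 0.968% and 5.69% were called in the former fit and 1.65%, 1.21% and 25.2% in the latter. Leaving out 1 treated library of the group compared gave 1 to 6 calls with SNP100, 2 or 3 with SNP50 and 1 or 2 with HMSNP. Those fits called 0.29% to 0.56%, 0.443% to 0.499% and 2.51% to 2.93% of all genes. Of the calls made with all libraries, Rtp4 with SNP100 and Rtp4 and Cmpk2 with SNP50 were kept in all 15 fits that left out 1 library, and none of the 5 with HMSNP was. Of the 34 calls with MSNP, 25 were kept in all 15, and the 9 lost in at least 1 of them were Ifih1, Mx1, Oas2, Oas3, Rigi, Rsad2, Epsti1, Oasl1 and Oas1g.

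**Figure D3:**
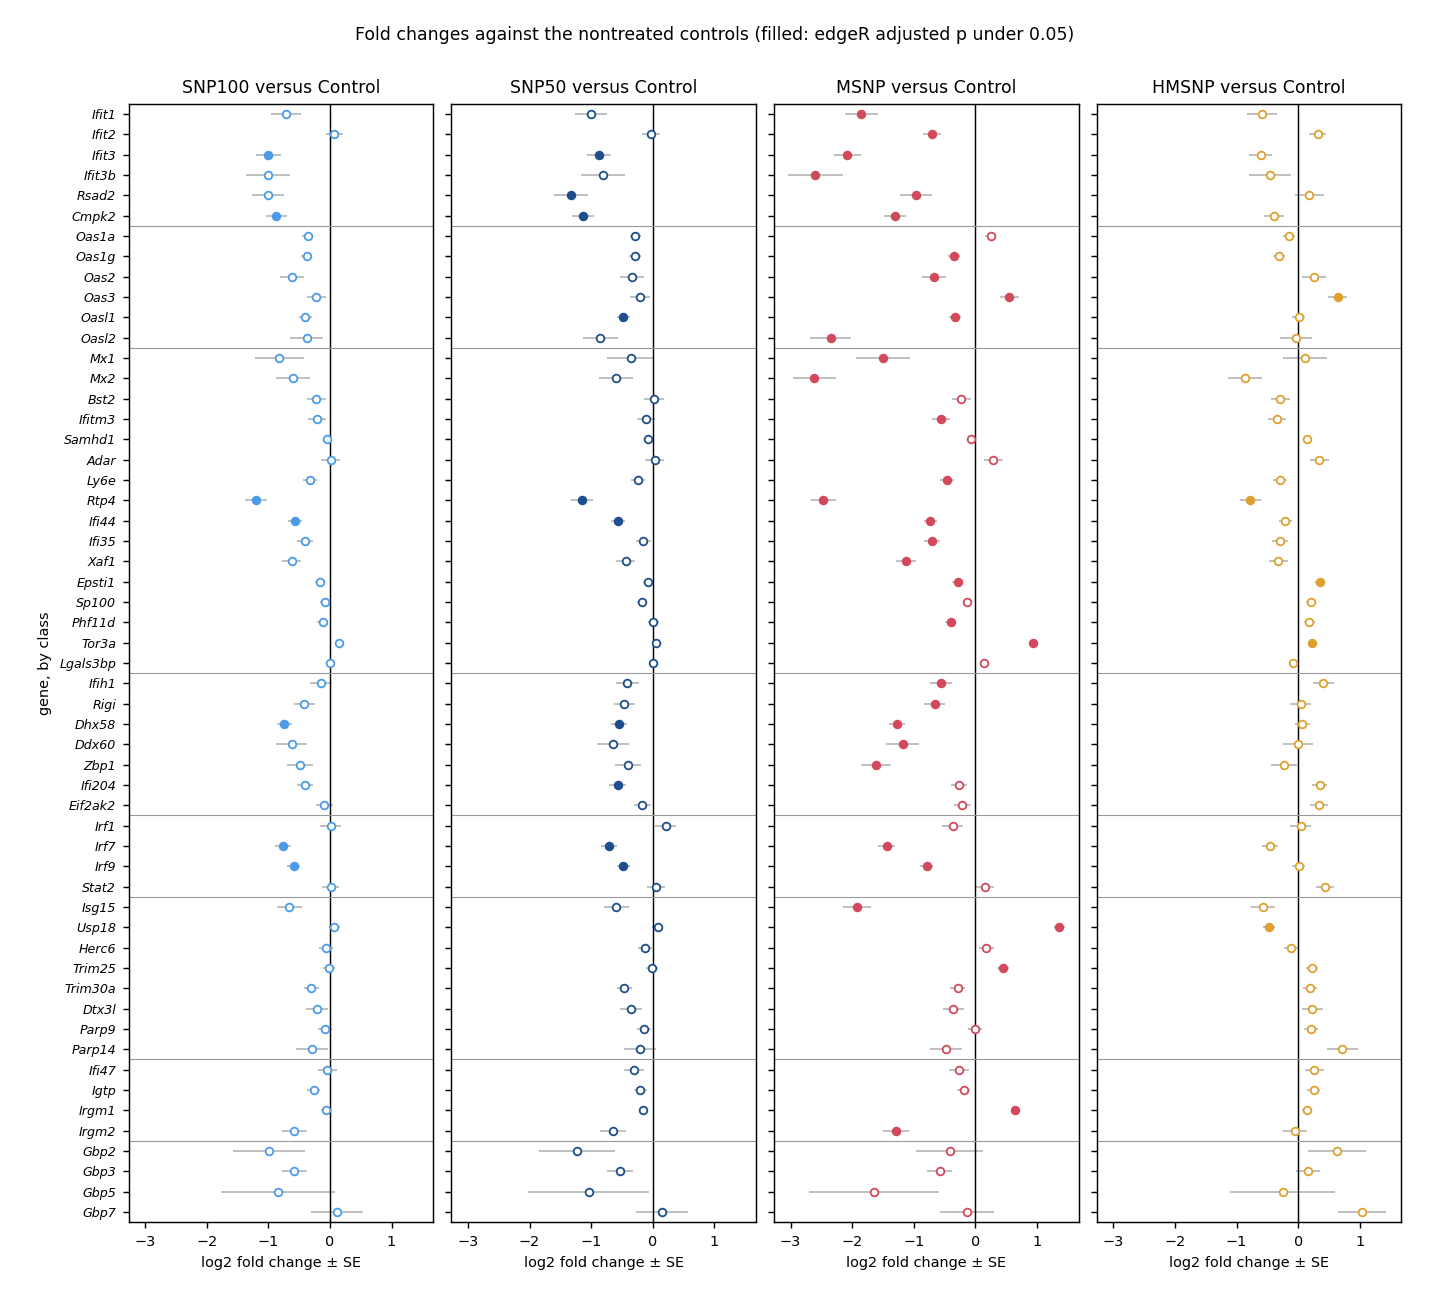
Log2 fold change ± SE of the 55 members in the 4 particle groups against the controls, by class, with filled points for edgeR adjusted p under 0.05. MSNP has 34 filled points, 29 of them left of 0, SNP100 has 7 and SNP50 10, all left of 0, and HMSNP has 5; Gbp5 and Gbp2 have wide bars and few counts.

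The IFIT proteins, which bind foreign RNA and block its translation, were lower with MSNP together with viperin (Rsad2), an enzyme that makes a chain-terminating nucleotide, and Cmpk2, the nucleotide kinase encoded beside it. All 6 genes of this class were called lower with MSNP (median -1.58), and all 6 were called higher with HMSNP than with MSNP (median 1.20). Ifit3 read 2.89, 2.26 and 2.73 CPM in the controls, 1.61, 1.14 and 1.16 with SNP100, 1.22, 1.64 and 1.44 with SNP50, 0.793, 0.54 and 0.534 with MSNP and 1.38, 2.04 and 1.72 with HMSNP. The 3 MSNP libraries were the lowest of the 15, and every treated library lay below every control. The fold changes of Ifit3 against the controls were -2.08 ± 0.22 (adjusted p = 4.2e-06) with MSNP, -1.0 ± 0.20 (adjusted p = 0.0259) with SNP100 and -0.87 ± 0.20 (adjusted p = 0.0482) with SNP50, and -0.61 ± 0.19 (adjusted p = 0.0824) with HMSNP did not pass. The SNP50 call of Ifit3 was lost in 15 of 22 alternative fits, which changed the method or left out a library. Ifit1 read 3.32, 3.9 and 3.62 CPM in the controls, 2.86, 1.85 and 1.91 with SNP100, 1.62, 2.13 and 1.63 with SNP50, 1.19, 0.486 and 1.36 with MSNP and 2.15, 2.71 and 2.36 with HMSNP, and the MSNP libraries were again the lowest. Its change was -1.85 ± 0.27 (adjusted p = 0.000111) with MSNP and missed the threshold with SNP50 at -1.0 ± 0.25 (adjusted p = 0.0772). Ifit2, the most abundant gene of the class per length in the controls at 6.24 ± 2.27 TPM, read 12.5, 15 and 8.82 CPM in the controls, 13.5, 12.6 and 11.8 with SNP100, 11.4, 12.2 and 12 with SNP50, 8.2, 7.18 and 6.82 with MSNP and 15.6, 14.8 and 15 with HMSNP. For Ifit2 the nonporous groups overlapped the controls, with changes of 0.07 ± 0.14 and -0.03 ± 0.14, and MSNP alone lay below them at -0.71 ± 0.15 (adjusted p = 0.00209).

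Ifit3b, a near-identical neighbour of Ifit3, had the steepest fitted fall of the class at -2.60 ± 0.44 (adjusted p = 0.000432) with MSNP, on 2, 4 and 7 counts per library against 31, 29 and 24 in the controls. Its CPM values were 0.944, 0.839 and 0.625 CPM in the controls, 0.572, 0.272 and 0.332 with SNP100, 0.304, 0.454 and 0.608 with SNP50, 0.0661, 0.108 and 0.207 with MSNP and 0.617, 0.769 and 0.367 with HMSNP. How reads shared by Ifit3 and Ifit3b were counted is not given in the sources used here, so their separate values are uncertain. Rsad2 read 1.95, 2.26 and 1.43 CPM in the controls, 1.14, 1.03 and 0.609 with SNP100, 0.473, 0.879 and 0.864 with SNP50, 0.991, 0.783 and 1.13 with MSNP and 2.23, 2.33 and 1.83 with HMSNP. It was the member with the largest called change with SNP50, -1.33 ± 0.27 (adjusted p = 0.0268), where the libraries lay below all the controls, and it was also lower with MSNP at -0.96 ± 0.26 (adjusted p = 0.0149). Its HMSNP libraries overlapped the controls (0.18 ± 0.24). Cmpk2 read 2.71, 3.27 and 2.37 CPM in the controls, 1.8, 1.31 and 1.44 with SNP100, 0.979, 1.5 and 1.31 with SNP50, 1.12, 1.11 and 1.13 with MSNP and 2.15, 2.2 and 2.02 with HMSNP, so that all 12 treated libraries lay below the lowest control. Cmpk2 changed by -1.31 ± 0.18 (adjusted p = 5.03e-05) with MSNP, -1.13 ± 0.18 (adjusted p = 0.00559) with SNP50 and -0.87 ± 0.17 (adjusted p = 0.024) with SNP100. The same value with HMSNP, -0.39 ± 0.16 (adjusted p = 0.17), did not pass.

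The OAS family, whose active synthetases answer double-stranded RNA with short oligoadenylates that activate RNase L, did not move as one group. With MSNP 4 of the 6 were called lower and Oas3 higher. Oasl2 had the largest change and read 1.34, 1.1 and 1.25 CPM in the controls, 1.07, 0.762 and 0.997 with SNP100, 0.506, 0.992 and 0.512 with SNP50, 0.198, 0.189 and 0.326 with MSNP and 1.09, 0.928 and 1.56 with HMSNP. Its MSNP libraries, at 6, 7 and 11 counts, were the lowest of the 15, and the change was -2.35 ± 0.33 (adjusted p = 7.44e-05) against the controls. Oas2 read 17, 16.5 and 9.92 CPM in the controls, 9.39, 11.6 and 7.34 with SNP100, 11.5, 11.1 and 11.8 with SNP50, 8.26, 8.12 and 10.9 with MSNP and 16.9, 15.7 and 19.2 with HMSNP, with the value of Control replicate 3 well below the other controls, and its change with MSNP was -0.67 ± 0.20 (adjusted p = 0.0222). Oas3 read 26.4, 31.5 and 18 CPM in the controls, 24.2, 20.4 and 20.4 with SNP100, 17.8, 24.3 and 23.4 with SNP50, 36.4, 36.9 and 37.6 with MSNP and 39.6, 39.4 and 39 with HMSNP. All 6 libraries with porous particles were above all 9 others for Oas3, by 0.55 ± 0.16 (adjusted p = 0.0211) with MSNP and 0.64 ± 0.16 (adjusted p = 0.0318) with HMSNP against the controls, and the porous groups themselves were not called different (0.09 ± 0.16, 95% interval -0.24 to 0.43). The pair Oas1a and Oas1g are near copies of each other, so their counts are uncertain too. Oas1a, the most abundant of the class per length at 32.3 ± 1.18 TPM, read 24.4, 24.8 and 31.7 CPM in the controls, 21.4, 21.6 and 20.1 with SNP100, 22.4, 20.8 and 23.3 with SNP50, 33, 31.3 and 31.6 with MSNP and 24.8, 24.3 and 23.8 with HMSNP. MSNP was not called against the controls for Oas1a (0.25 ± 0.091, adjusted p = 0.0668), and HMSNP was lower than MSNP (-0.39 ± 0.091, adjusted p = 0.00533). Oas1g was lower with MSNP (-0.35 ± 0.097, adjusted p = 0.0151). Oasl1, a known inhibitor of Irf7 translation, was lower with SNP50 (-0.48 ± 0.10, adjusted p = 0.0378) and with MSNP (-0.33 ± 0.10, adjusted p = 0.0331), and its HMSNP value was 0.01 ± 0.10. The SNP50 call of Oasl1 was lost in 13 of 22 alternative fits.

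Among the 16 Mx proteins and other effectors, 10 were called lower with MSNP and Tor3a higher. Rtp4, a receptor-transport protein that restricts flaviviruses, was called lower with all 4 particles. It read 4.42, 5.03 and 5.41 CPM in the controls, 2.39, 2.1 and 1.97 with SNP100, 1.62, 2.75 and 2.3 with SNP50, 0.991, 0.756 and 0.948 with MSNP and 3.41, 2.81 and 2.47 with HMSNP. Every treated library lay below every control, the MSNP libraries were the lowest, and the HMSNP libraries were the highest of the treated ones except that 1 SNP50 library fell between them. Against the controls Rtp4 fell by 81.9% with MSNP (-2.47 ± 0.20 on the log2 scale, adjusted p = 2.13e-07). Its log2 changes were -1.20 ± 0.18 (adjusted p = 0.00388) with SNP100, -1.15 ± 0.18 (adjusted p = 0.00545) with SNP50 and -0.78 ± 0.17 (adjusted p = 0.0167) with HMSNP. Of its exon length, 26.6% lies in a lncRNA on the same strand (Gm45338), so reads there cannot be assigned to Rtp4 alone. Mx2 and Mx1 belong to a family of dynamin-like GTPases that can block virus replication. Whether their proteins do so in this line was not measured. Mx2 read 1.13, 1.01 and 0.859 CPM in the controls, 0.832, 0.708 and 0.415 with SNP100, 0.743, 0.652 and 0.576 with SNP50, 0.198, 0.108 and 0.178 with MSNP and 0.47, 0.398 and 0.756 with HMSNP, and its MSNP libraries were the lowest of the 15 at 6, 4 and 6 counts. The change of Mx2 with MSNP was -2.62 ± 0.35 (adjusted p = 4.27e-05), the largest fitted fall of any called member. Mx1 read 0.396, 0.549 and 0.26 CPM in the controls, 0.312, 0.218 and 0.138 with SNP100, 0.169, 0.397 and 0.352 with SNP50, 0.165, 0.162 and 0.0889 with MSNP and 0.441, 0.318 and 0.527 with HMSNP, its MSNP change was -1.5 ± 0.44 (adjusted p = 0.0229), and that call was lost when Control replicate 2 or any 1 MSNP library was left out. Xaf1, an antagonist of the apoptosis inhibitor XIAP, read 3.71, 4.16 and 4.84 CPM in the controls, 2.94, 2.78 and 2.58 with SNP100, 3.14, 3.43 and 2.78 with SNP50, 2.08, 1.54 and 2.22 with MSNP and 2.91, 3.61 and 3.67 with HMSNP. Its MSNP libraries were the lowest, and the change was -1.13 ± 0.16 (adjusted p = 7.17e-05).

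Tor3a, an ATPase of the endoplasmic reticulum, went the other way. It read 88.3, 97.4 and 86.7 CPM in the controls, 103, 97.5 and 102 with SNP100, 93.1, 96.2 and 92.9 with SNP50, 178, 170 and 176 with MSNP and 106, 109 and 104 with HMSNP. The MSNP libraries were far above all others, and the change against the controls was 0.94 ± 0.061 (adjusted p = 1.68e-08), while HMSNP was called higher by 0.23 ± 0.06 (adjusted p = 0.0419). The HMSNP call of Tor3a was lost in 16 of 22 alternative fits. Of its exon length 17.3% is shared with a protein-coding gene on the opposite strand (Abl2). Ly6e read 810, 803 and 1200 CPM in the controls, 736, 726 and 776 with SNP100, 828, 796 and 764 with SNP50, 680, 679 and 691 with MSNP and 744, 790 and 752 with HMSNP. The call with MSNP, -0.46 ± 0.12 (adjusted p = 0.00952), was kept without Control replicate 3, and the MSNP libraries were the lowest of the 15. Ifitm3 was at 347, 326 and 549 CPM in the controls and 290, 267 and 274 CPM with MSNP (-0.56 ± 0.15, adjusted p = 0.0114). Of its exon length 60.9% is shared with a lncRNA on the opposite strand (Gm57251), and the strand setting of the counting is not given in the sources used here. Ifi44 was lower with SNP100 (-0.57 ± 0.11, adjusted p = 0.0231), SNP50 (-0.56 ± 0.11, adjusted p = 0.02) and MSNP (-0.73 ± 0.11, adjusted p = 0.000158). With MSNP Ifi35 (-0.70 ± 0.13), Phf11d (-0.40 ± 0.092) and Epsti1 (-0.29 ± 0.085) were lower as well. Ifi35 shares 16.2% of its exon length with a protein-coding gene on the opposite strand (Vat1). Epsti1 was higher with HMSNP than in the controls (0.36 ± 0.083, adjusted p = 0.0205). Samhd1, the dNTP hydrolase, Sp100, a nuclear body protein, and the secreted glycoprotein Lgals3bp were not called against the controls with any particle.

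Of the 7 nucleic acid sensors, 5 were called lower with MSNP and none higher. The 3 RIG-I-like receptors, which recognise foreign RNA in the cytoplasm, were among them. Dhx58 (LGP2), which regulates the other members of the family, read 7.98, 8.59 and 7.39 CPM in the controls, 5.36, 4.84 and 4.1 with SNP100, 5.37, 5.19 and 5.86 with SNP50, 3.14, 2.78 and 4 with MSNP and 8.38, 8.41 and 8.29 with HMSNP. The nonporous and MSNP libraries all lay below the controls and below the HMSNP libraries, and the HMSNP libraries fell within the range of the controls. Dhx58 changed by -1.27 ± 0.13 (adjusted p = 3.21e-06) with MSNP, by -0.74 ± 0.13 (adjusted p = 0.00943) with SNP100 and by -0.55 ± 0.13 (adjusted p = 0.0497) with SNP50, and its HMSNP value was 0.07 ± 0.12 (95% interval -0.20 to 0.33). The SNP50 call of Dhx58 was lost in 17 of 22 alternative fits. Ifih1 (MDA5) read 7.03, 8.39 and 4.61 CPM in the controls, 7.02, 5.01 and 5.93 with SNP100, 4.83, 5.41 and 4.8 with SNP50, 4.49, 3.97 and 5.07 with MSNP and 8.58, 9.36 and 8.64 with HMSNP, and its HMSNP libraries were the highest of the 15. The MSNP change of Ifih1, -0.56 ± 0.18 (adjusted p = 0.0382), rested on a group of controls that spread from 4.61 to 8.39 CPM. Rigi (RIG-I) changed by -0.66 ± 0.17 (adjusted p = 0.0119) with MSNP.

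Zbp1, the receptor for Z-form nucleic acids that can start necroptosis, read 1.28, 1.53 and 1.2 CPM in the controls, 0.937, 0.98 and 0.942 with SNP100, 1.01, 0.964 and 1.06 with SNP50, 0.364, 0.594 and 0.326 with MSNP and 0.793, 1.33 and 1.26 with HMSNP. The MSNP libraries were the lowest of the 15, and the change was -1.62 ± 0.24 (adjusted p = 0.000142). Ddx60, a helicase linked to RIG-I signalling, read 1.46, 1.42 and 0.807 CPM in the controls, 0.624, 0.898 and 0.858 with SNP100, 1.01, 0.794 and 0.544 with SNP50, 0.562, 0.513 and 0.534 with MSNP and 1.38, 1.14 and 1.15 with HMSNP. MSNP lay below the controls at -1.18 ± 0.27 (adjusted p = 0.00457). Eif2ak2 (PKR), the kinase that halts translation on double-stranded RNA, was the most abundant sensor per length at 25 ± 9.51 TPM. It read 46.3, 58.2 and 33 CPM in the controls, 43.3, 42.9 and 42.5 with SNP100, 36.7, 41.8 and 43.2 with SNP50, 40.2, 40.1 and 38.8 with MSNP and 58.6, 59.9 and 55.4 with HMSNP, was not called against the controls with any particle, and was higher with HMSNP than with MSNP (0.55 ± 0.14, adjusted p = 0.011). Ifi204, a sensor of DNA, was lower with SNP50 (-0.57 ± 0.13, adjusted p = 0.0497) and not called with the other particles against the controls. The SNP50 call of Ifi204 was lost in 17 of 22 alternative fits.

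Irf7 and Irf9 were lower with MSNP, and Irf1 and Stat2 were not called. Irf7, which amplifies interferon production, read 7.89, 7.08 and 9.24 CPM in the controls, 4.79, 4.25 and 5.32 with SNP100, 4.12, 5.64 and 5.06 with SNP50, 2.84, 3.02 and 3.08 with MSNP and 5.7, 6.23 and 5.66 with HMSNP. Every treated library lay below every control, with MSNP lowest. Irf7 fell by 63% with MSNP (-1.44 ± 0.14 on the log2 scale, adjusted p = 1.14e-06). Its log2 changes were -0.76 ± 0.13 (adjusted p = 0.00943) with SNP100 and -0.71 ± 0.13 (adjusted p = 0.0139) with SNP50. The HMSNP value, -0.46 ± 0.13 (adjusted p = 0.0501), just missed the threshold. Irf9, the DNA-binding partner of Stat2 and the most abundant factor of the class per length (16 ± 2.47 TPM), read 20.5, 18.6 and 18.5 CPM in the controls, 14.3, 12.7 and 11.2 with SNP100, 13.2, 14 and 14 with SNP50, 10.7, 9.72 and 12.8 with MSNP and 18.1, 19.7 and 20.4 with HMSNP. Its HMSNP libraries overlapped the controls (0.01 ± 0.10, 95% interval -0.21 to 0.24), and the other 9 treated libraries lay below both. Irf9 changed by -0.79 ± 0.11 (adjusted p = 4.89e-05) with MSNP, -0.59 ± 0.11 (adjusted p = 0.0138) with SNP100 and -0.48 ± 0.11 (adjusted p = 0.0403) with SNP50. The SNP50 call of Irf9 was lost in 14 of 22 alternative fits. Stat2 was at 20.7, 22.2 and 13.3 CPM in the controls and 20.6, 19.8 and 22.3 CPM with MSNP (0.16 ± 0.14, 95% interval -0.15 to 0.46). With HMSNP Stat2 was at 26.9, 23.2 and 26.1 CPM, above every other library, and was called neither against the controls nor against MSNP.

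In the class of ISG15 and the ubiquitin and ADP-ribose enzymes, the modifier fell and its protease rose with MSNP. Isg15, a ubiquitin-like protein that is attached to other proteins, read 2.62, 2.46 and 3.15 CPM in the controls, 1.66, 1.52 and 2.02 with SNP100, 2.19, 1.62 and 1.7 with SNP50, 0.529, 0.621 and 1.01 with MSNP and 1.5, 2.12 and 1.92 with HMSNP. The MSNP libraries were the lowest of the 15, and the change was -1.92 ± 0.23 (adjusted p = 1.39e-05). Usp18, which removes ISG15 from proteins and also dampens signalling at Ifnar2, read 12.3, 12.9 and 15.7 CPM in the controls, 14.9, 13.9 and 14.3 with SNP100, 13.6, 15 and 14.6 with SNP50, 35.4, 35.3 and 34.6 with MSNP and 10.3, 10.4 and 9 with HMSNP. The MSNP libraries exceeded every other library, with a change of 1.36 ± 0.092 (adjusted p = 2.93e-08), and the HMSNP libraries lay below every control, with -0.47 ± 0.093 (adjusted p = 0.00884). Of Isg15's exon length 31.1% is shared with a lncRNA on the opposite strand (Gm46878), and of Usp18's 4.6% (Gm44148). Trim25, a ubiquitin ligase that acts on RIG-I and the most abundant of the class at 74.1 ± 21.7 TPM, read 182, 204 and 142 CPM in the controls, 174, 178 and 168 with SNP100, 168, 179 and 178 with SNP50, 235, 245 and 234 with MSNP and 204, 212 and 205 with HMSNP. MSNP was above all the controls, by 0.44 ± 0.098 (adjusted p = 0.00401). Parp14, an ADP-ribosyltransferase, read 16.1, 23.1 and 8.02 CPM in the controls, 13.9, 12.1 and 12.5 with SNP100, 10.7, 15.4 and 14.9 with SNP50, 11.3, 11.1 and 11.4 with MSNP and 25.1, 29.3 and 23.4 with HMSNP. The controls spread over more than the distance between any treated group and their mean, and no particle was called against them, while every HMSNP library was above every other library. Herc6, the ligase that attaches ISG15 in the mouse, Trim30a, Dtx3l and Parp9 were not called against the controls.

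The 2 families of immunity-related GTPases act on vacuoles that hold microbes. Irgm1 and Irgm2, which regulate the other members of the IRG family, moved in opposite directions with MSNP. Irgm1 read 21.1, 22.1 and 19 CPM in the controls, 20.7, 19.5 and 19 with SNP100, 17.9, 20 and 18.2 with SNP50, 33.9, 32.2 and 31.4 with MSNP and 22.7, 23 and 22.8 with HMSNP. The MSNP libraries were the highest of the 15, at 0.65 ± 0.074 (adjusted p = 8.28e-06) against the controls. Irgm2 read 4.2, 4.31 and 2.24 CPM in the controls, 2.5, 2.5 and 2.13 with SNP100, 2.06, 2.78 and 1.98 with SNP50, 1.42, 1.46 and 1.48 with MSNP and 3.47, 3.47 and 3.39 with HMSNP. Its MSNP libraries were the lowest, at -1.29 ± 0.22 (adjusted p = 0.000382), and Control replicate 3 lay below its 2 partners and among the nonporous libraries. Ifi47 and Igtp were not called against the controls with any particle, with changes of -0.31 to 0.26. Igtp and Irgm2 share 162 exonic bases on the same strand, so a small part of their reads cannot be separated.

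None of the 4 GBP GTPases was called against the controls. Gbp3, the most abundant of them per length at 1.55 ± 0.419 TPM, read 1.64, 2.17 and 1.64 CPM in the controls, 1.14, 1.36 and 1.14 with SNP100, 1.11, 1.56 and 1.09 with SNP50, 1.42, 0.999 and 1.24 with MSNP and 1.59, 2.12 and 2.34 with HMSNP. All 3 MSNP libraries lay below all 3 controls, but the change of -0.58 ± 0.21 (adjusted p = 0.0575) did not pass. Gbp7 was at 0.913, 0.954 and 0.13 CPM in the controls, with Control replicate 3 far below the others, and at 1.41, 1.3 and 1.33 CPM with HMSNP. Its change with HMSNP, 1.04 ± 0.39 (adjusted p = 0.134), did not pass. Gbp2 had 0 to 16 counts per library. Gbp5 had at most 3 counts in each SNP50 and MSNP library and 0 to 10 in the others, so no fold change is given for it.

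**Figure D4:**
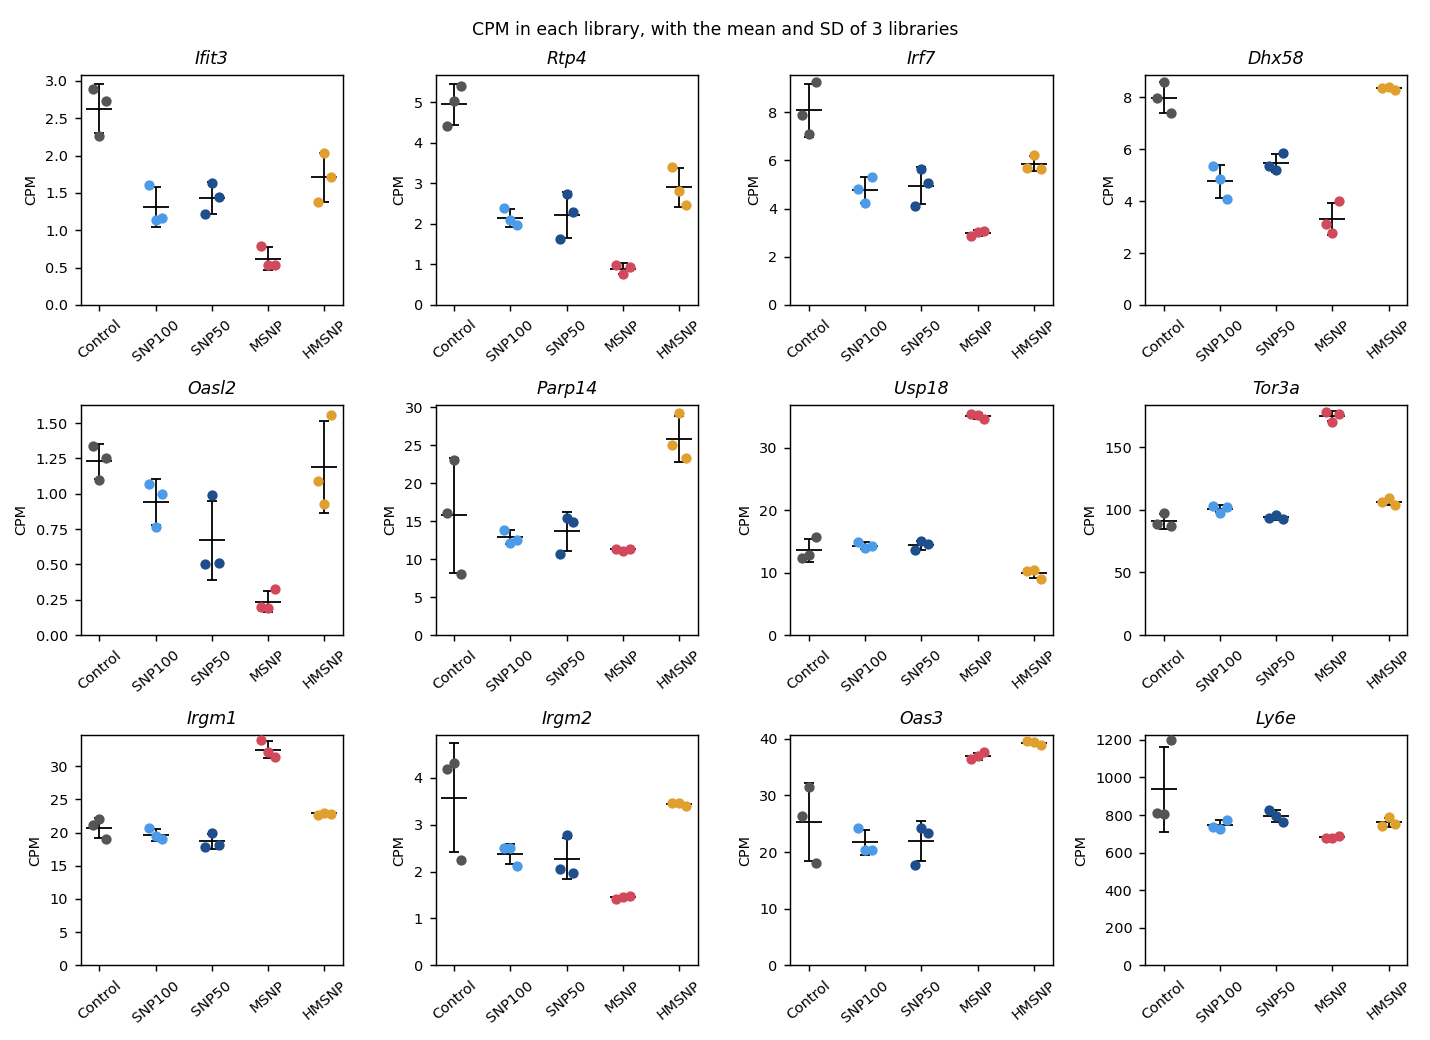
CPM of 12 members in each of the 15 libraries (points), with the mean and SD of the 3 libraries of a group (bars), every axis starting at 0. Ifit3, Rtp4, Irf7, Dhx58, Oasl2 and Irgm2 are lowest with MSNP, Usp18, Tor3a and Irgm1 are highest with MSNP, and Parp14 and Oas3 are highest with HMSNP.

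The comparison of the mesoporous with the hollow mesoporous particle used neither the controls' means nor unequal doses, though its estimate of the spread came from all 15 libraries. The particles differ in density and surface composition as well as in the hollow core. These properties, and whatever the numbers in the library names stand for, cannot be told apart here. With HMSNP 36 of the 55 members were called higher than with MSNP and 5 lower, where 20.2% of all genes were called, 9.22% higher and 11% lower. The median log2 difference was 0.60. All 3 HMSNP libraries lay above all 3 MSNP libraries for 44 members and below for 7, where 21.6% and 23.7% of all genes did so, and the groups overlapped for 4. The largest upward differences among the called members were in Oasl2 (2.32 ± 0.33, adjusted p = 8.87e-05), Ifit3b (2.14 ± 0.46, adjusted p = 0.00311), Mx2 (1.77 ± 0.37, adjusted p = 0.00282), Rtp4 (1.69 ± 0.20, adjusted p = 1.68e-05) and Mx1 (1.61 ± 0.43, adjusted p = 0.0143). All 7 sensors were higher, led by Zbp1 (1.38 ± 0.25, adjusted p = 0.000675), Dhx58 (1.34 ± 0.13, adjusted p = 1.89e-06), Ddx60 (1.18 ± 0.27, adjusted p = 0.00464) and Ifih1 (0.98 ± 0.18, adjusted p = 0.000967). Rigi, Ifi204 and Eif2ak2 differed by 0.70 ± 0.17, 0.60 ± 0.13 and 0.55 ± 0.14.

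The 5 members that were lower with HMSNP than with MSNP were Usp18 (-1.83 ± 0.093, adjusted p = 1.63e-09), Tor3a (-0.72 ± 0.06, adjusted p = 3.74e-07), Irgm1 (-0.51 ± 0.073, adjusted p = 0.0001), Oas1a (-0.39 ± 0.091, adjusted p = 0.00533) and Lgals3bp (-0.22 ± 0.066, adjusted p = 0.0288). Both transcription factors that fell with MSNP were higher with HMSNP, Irf7 by 0.97 ± 0.14 (adjusted p = 7.46e-05) and Irf9 by 0.81 ± 0.11 (adjusted p = 4.5e-05). In the IFIT class the differences of Ifit3, Ifit1, Rsad2, Ifit2 and Cmpk2 were 1.47 ± 0.23, 1.26 ± 0.28, 1.14 ± 0.26, 1.03 ± 0.14 and 0.92 ± 0.18. Isg15 (1.36 ± 0.23, adjusted p = 0.000536), Irgm2 (1.24 ± 0.22, adjusted p = 0.000565) and Parp14 (1.20 ± 0.26, adjusted p = 0.00314) were more than 1 log2 unit higher with HMSNP. Members with smaller differences included Oas2 (0.93 ± 0.20), Xaf1 (0.81 ± 0.16), Epsti1 (0.65 ± 0.084), Ifi47 (0.53 ± 0.16), Igtp (0.44 ± 0.10) and Samhd1 (0.22 ± 0.068). Of the GBP GTPases, Gbp3 was called higher (0.74 ± 0.20, adjusted p = 0.0173). Of the 41 calls, 30 were kept in all 15 fits that left out 1 library.

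**Figure D5:**
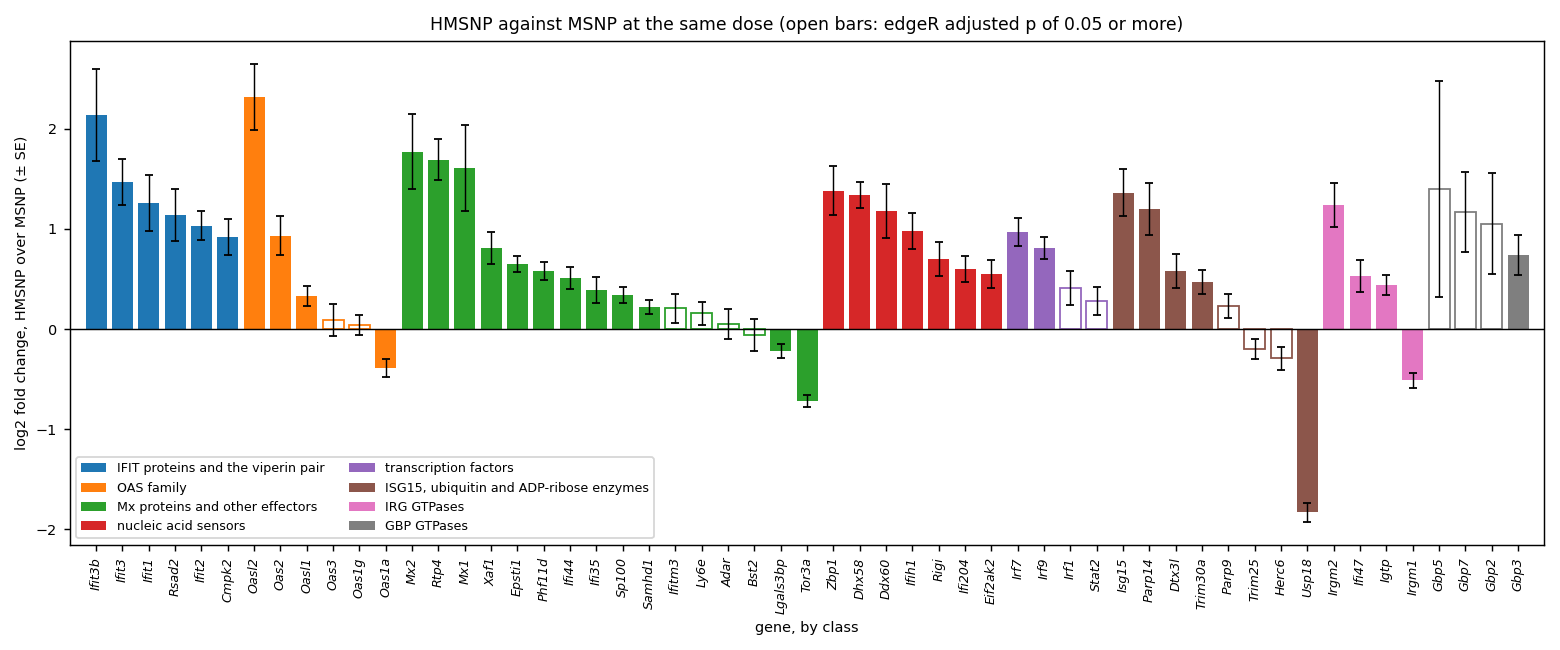
Log2 fold change of HMSNP over MSNP for the 55 members, with SE, by class and sorted within each class; open bars did not pass edgeR's adjusted p of 0.05. Filled bars above 0 number 36 and filled bars below 0 number 5, with Usp18 the lowest at -1.83; the Gbp5 bar rests on at most 10 counts per library and is not interpreted.

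The nonporous particles of 100 and 50 nm, which were given at different doses, did not differ in any member past the threshold. Between SNP50 and SNP100 no member was called by edgeR or DESeq2, and no member had an unadjusted edgeR p under 0.05. Of all tested genes edgeR called 0%, and DESeq2 called 1 gene (0.00504%). The log2 differences of SNP50 from SNP100 were 0.05 ± 0.19 (95% interval -0.35 to 0.46) for Rtp4, 0.14 ± 0.21 (95% interval -0.31 to 0.59) for Ifit3, 0.05 ± 0.13 (95% interval -0.23 to 0.33) for Irf7 and 0.01 ± 0.092 (95% interval -0.19 to 0.20) for Usp18. Intervals were wider for the scarcer transcripts, such as Oasl2 with -0.47 ± 0.29 (95% interval -1.09 to 0.15), so larger differences were not excluded for them.

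MSNP and SNP100, of the same nominal diameter but given at 200 and 50 µg/mL, differed in 20 members, 14 lower and 6 higher with MSNP, where 17.9% of all genes were called, 7.53% lower and 10.4% higher. The lower ones included Mx2 (-2.02 ± 0.37, adjusted p = 0.000977), Oasl2 (-1.97 ± 0.34, adjusted p = 0.000632), Rtp4 (-1.27 ± 0.21, adjusted p = 0.000415) and Isg15 (-1.26 ± 0.24, adjusted p = 0.00129). The higher ones were Usp18 (1.29 ± 0.091), Tor3a (0.79 ± 0.06), Oas3 (0.77 ± 0.16), Irgm1 (0.72 ± 0.074), Oas1a (0.60 ± 0.092) and Trim25 (0.46 ± 0.098). Particle structure and dose cannot be told apart in this comparison.

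Called neither against the controls nor between MSNP and HMSNP were Bst2, Adar, Irf1, Stat2, Herc6, Parp9, Gbp2, Gbp5 and Gbp7. Adar, the RNA-editing enzyme, was at 112, 127 and 67.9 CPM in the controls and 126, 126 and 124 CPM with MSNP, so the MSNP group fell near the upper controls and Control replicate 3 stood below both. Bst2 was at 38.5, 36.4 and 63.8 CPM in the controls and 40.5, 37.1 and 40.7 CPM with MSNP. In both genes the widest deviation was that of Control replicate 3.

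The rest of the interferon pathway was examined over 84 other genes, of which 74 could be tested. These genes, too, were listed with earlier results of these data known. With MSNP 28 of the 74 were called lower and 13 higher, where 11% and 11.8% of all genes were. With SNP100, and also with SNP50, 2 were lower (Cxcl10 and Irf5) and none higher, where 0.403% and 0.958% of all genes were lower. With HMSNP 10 were higher and none lower, where 2.46% and 2.7% of all genes were. Between the porous particles 33 were higher and 7 lower with HMSNP, where 9.22% and 11% of all genes were. Without Control replicate 3 the counts were 30 lower and 14 higher with MSNP, 6 and 1 with SNP100, 10 and 4 with SNP50 and 2 and 14 with HMSNP, and 1 call with MSNP was lost, that of Phf11b (edgeR adjusted p = 0.075), which is named here after its values were seen. In that fit 13.2% and 16.3% of all genes were called lower and higher with MSNP, 2.32% and 2.84% with SNP100, 9.3% and 9.63% with SNP50 and 4.2% and 4.47% with HMSNP. Of 7 receptor and kinase genes, Ifngr1 (-0.74 ± 0.076, adjusted p = 3.27e-06), Jak2 (-0.71 ± 0.14, adjusted p = 0.00123) and Ifnar2 (-0.25 ± 0.058, adjusted p = 0.00542) were lower with MSNP. Ifnar1 (0.32 ± 0.091, adjusted p = 0.0208) and Jak1 (0.49 ± 0.15, adjusted p = 0.0277) were higher. Both have low values in Control replicate 3, at 71.6 CPM against 91.9 and 99.6 for Ifnar1 and at 95.2 CPM against 145 and 176 for Jak1. Without that library the changes were 0.20 ± 0.046 for Ifnar1 and 0.29 ± 0.079 for Jak1, and both were still called. HMSNP was called against the controls for 1 of these 7 genes, Ifnar1 (0.36 ± 0.091, adjusted p = 0.0338), with 0.24 ± 0.046 without Control replicate 3.

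Irf5, which drives inflammatory cytokine genes in macrophages, read 197, 192 and 229 CPM in the controls, 145, 142 and 153 with SNP100, 156, 152 and 152 with SNP50, 116, 113 and 119 with MSNP and 228, 244 and 238 with HMSNP. The SNP100, SNP50 and MSNP libraries all lay below the controls, with log2 changes of -0.49 ± 0.07 (adjusted p = 0.00286), -0.43 ± 0.07 (adjusted p = 0.00685) and -0.83 ± 0.07 (adjusted p = 3.56e-07), while HMSNP overlapped them. Irf4, a factor of alternative macrophage activation, read 0.579, 0.52 and 0.417 CPM in the controls, 0.937, 0.708 and 0.609 with SNP100, 0.506, 0.425 and 0.832 with SNP50, 3.04, 3.45 and 3.14 with MSNP and 0.999, 0.636 and 1.05 with HMSNP, and its MSNP libraries were the highest of the 15 (2.67 ± 0.25, adjusted p = 9.37e-07). Irf2 (-0.79 ± 0.083, adjusted p = 3.74e-06) and Irf3 (-0.46 ± 0.11, adjusted p = 0.00784), the latter a main inducer of interferon beta, were lower with MSNP. The change of Irf3 was -0.27 ± 0.066 without Control replicate 3. Against MSNP, HMSNP was higher for Irf5 (1.03 ± 0.07, adjusted p = 3.75e-08) and Irf2 (1.05 ± 0.083, adjusted p = 1.87e-07) and lower for Irf4 (-1.84 ± 0.23, adjusted p = 2.01e-05).

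Cxcl10, a chemokine induced by interferons, read 2.92, 2.75 and 3.7 CPM in the controls, 2.06, 1.55 and 1.86 with SNP100, 1.62, 1.84 and 1.28 with SNP50, 0.43, 0.378 and 0.534 with MSNP and 2.29, 2.49 and 2.25 with HMSNP. All 12 treated libraries were below the controls, with changes of -2.80 ± 0.20 (adjusted p = 6.36e-08) for MSNP, -0.98 ± 0.17 (adjusted p = 0.0101) for SNP50 and -0.78 ± 0.17 (adjusted p = 0.0392) for SNP100, and HMSNP at -0.42 ± 0.16 (adjusted p = 0.143) did not pass. Ticam1 (TRIF), the adaptor of Toll-like receptors 3 and 4, read 19.3, 19.1 and 17.3 CPM in the controls, 18.9, 20 and 21.4 with SNP100, 19.4, 21.1 and 17.7 with SNP50, 41.2, 42.4 and 40.8 with MSNP and 23.1, 24.6 and 25.4 with HMSNP. It was higher with MSNP (1.16 ± 0.081, adjusted p = 4.09e-08) and with HMSNP (0.39 ± 0.08, adjusted p = 0.0102). Ptpn6 (SHP-1), a phosphatase that restrains cytokine signalling, read 353, 352 and 384 CPM in the controls, 362, 354 and 394 with SNP100, 408, 395 and 399 with SNP50, 187, 179 and 187 with MSNP and 425, 422 and 433 with HMSNP. Its 3 MSNP values were the lowest of the 15 (-0.98 ± 0.06, adjusted p = 1e-08), and HMSNP was above the controls (0.23 ± 0.059, adjusted p = 0.0352).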

How the data were processed

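Poly(A) RNA libraries from RAW 264.7 cells were deposited by the authors as raw counts per gene, whole numbers with no normalization, made from reads aligned to GRCm39. The submitters' processing notes name cutadapt 1.16, STAR 2.7.9a and featureCounts 1.6.3. The strand and multi-mapping options are not given in the sources used here. The members and lists were chosen with earlier results of these data known.

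Gene identifiers were matched to GENCODE vM39, where 56630 of 57186 were found, as were all 55 members. Genes with a count sum of at least 10 were tested with edgeR 4.0.16 in R 4.3.3 (TMM scaling, quasi-likelihood, Benjamini-Hochberg, threshold 0.05). All 15 libraries entered 1 fit, and the 7 comparisons were contrasts of it. The SE is the absolute log2 fold change divided by the square root of F, and the 95% intervals use the same fit. CPM values are TMM-scaled, and TPM uses the length of the canonical transcript. Depth was 29369934 to 42617812 counts per library, and counts of 3 or fewer were treated as the floor. Alternatives were DESeq2 1.42.0, RLE scaling, other filters, a transcript length offset, only the 6 libraries compared, a replicate block and leaving out each library.

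All 55 members could be named. Values per library are given for members called with a log2 change of at least 0.8 or the lowest p of their class and for the most abundant of each class. From the pathway list the 5 genes of lowest p and the called receptors, kinases and IRF factors are named. A gene of that list is not reported here. Figures were drawn with matplotlib.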

Additional observations from a re-analysis of the deposited data

How the results depend on the processing

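No call of a member reversed under any alternative. With DESeq2 the members called were 12 of 55 for SNP100, 12 for SNP50 and 9 for HMSNP against the controls, in place of 7, 10 and 5, and the share of all genes with an adjusted p that were called rose from 0.912%, 1.41% and 5.16% to 3.66%, 5.05% and 15.1%. A transcript length offset gave 12 for SNP100, 13 for SNP50 and 12 for HMSNP, with 2.71%, 4.7% and 10.2% of all genes. With only the 6 libraries compared there were 0, 0 and 0 for these groups and 21 for MSNP, in place of 34. Those fits called 0%, 0.00574%, 0.439% and 13% of all genes. In the same setting HMSNP against MSNP rose from 41 to 50 and MSNP against SNP100 from 20 to 30, each with 40.9% of all genes called. The cause was not tested. Without a filter on low counts SNP50 had 5, with 0.691% of all genes called. Of the calls, 21 of 34 for MSNP, 38 of 41 for HMSNP against MSNP and 17 of 20 for MSNP against SNP100 were kept in every setting other than those that left out a library. The member calls between SNP50 and SNP100 were 0 in every setting. Over all genes, DESeq2 called 1 gene there (0.00504%) and the fit without Control replicate 3 called 85 (0.433%).

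Leaving out each library in turn gave 1 to 20 calls for SNP100, 2 to 25 for SNP50, 26 to 41 for MSNP, 1 to 24 for HMSNP, 32 to 48 for HMSNP against MSNP and 14 to 28 for MSNP against SNP100. The shares of all genes called ran from 0.29% to 5.16% for SNP100, 0.443% to 18.9% for SNP50 and 17.4% to 33.2% for MSNP. They ran from 2.51% to 25.2% for HMSNP, 16.1% to 33.9% for HMSNP against MSNP and 13.4% to 33.1% for MSNP against SNP100. The ends for SNP100 were set by SNP100 replicate 2 (1) and Control replicate 3 (20), and SNP100 replicate 3 gave 2. For SNP50 the fits without SNP50 replicates 1, 2 and 3 gave 2, 3 and 2. Those without MSNP replicates 1 and 2 gave 4 and 5, without HMSNP replicates 1, 2 and 3 gave 6, 6 and 5, and without SNP100 replicate 3 gave 6. For HMSNP the fits without HMSNP replicates 1, 2 and 3 gave 2, 1 and 1, and those without SNP50 replicate 3 or any MSNP replicate gave 3. The median log2 change over the 55 members ranged from -0.39 to -0.28 for SNP100, -0.47 to -0.27 for SNP50, -0.59 to -0.42 for MSNP and 0.01 to 0.19 for HMSNP.

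The groups share replicate numbers, but nothing in the labels ties a number to a culture or day. The correlations of same-numbered libraries' deviations from their group means ran from -0.518 to 0.573, and 10 of 30 exceeded 0.1. Of the 15 libraries, 8 correlated best with a library of their own number. The deviations within a group depend on each other, so this check cannot decide whether the numbers pair the samples. With a replicate block the calls were 6 for SNP100, 5 for SNP50, 33 for MSNP, 4 for HMSNP, 39 for HMSNP against MSNP and 18 for MSNP against SNP100. Of all genes 0.716%, 0.907%, 22.1%, 4.46%, 19.2% and 16.9% were called in these comparisons, in the same order.

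Depth limits the scarcest members: Mx1 had at most 23 counts in a library, Gbp2 at most 16 and Gbp5 at most 10.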
